A study of Homo sapiens with 3 samples.

Results

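The Hedgehog signalling genes described here are GLI1, GLI2, GLI3, PTCH1, SMO, SUFU, GAS1, BOC and CDON. They are the 9 genes with these symbols among the 57736 genes of a count table of the ovarian cancer line TOV21G with and without depletion of HDAC2, a class I histone deacetylase. TOV21G derives from a human clear cell ovarian carcinoma and is mutated in ARID1A, a subunit gene of a chromatin remodelling complex, so all libraries carry that mutation. Total RNA was sequenced from 1 library of wild-type cells (WT) and from 2 libraries of cells transduced with a lentivirus that encodes a hairpin against HDAC2. Each of these knockdown libraries came from a different hairpin, shRNA 1 or shRNA 2. The labels name no time after transduction and no control virus for WT, so loss of HDAC2 and transduction cannot be told apart. They also do not state that the libraries came from separate cultures, so the spread between them may be technical. The genes were chosen with their values in these 3 libraries known. Their knockdown values, and on which side of the threshold they fell in the fit across all genes, are therefore a description and no evidence of a change. Tests are read only for genes outside the 9. The lists of pathway genes were also drawn up with earlier results of these data known.

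In Hedgehog signalling, a secreted ligand binds the receptor PTCH1 at the cell surface. Without ligand, PTCH1 holds back SMO, a membrane protein of the primary cilium, and the zinc finger factors GLI2 and GLI3 are held by SUFU and partly processed into repressors. When ligand binds PTCH1, SMO is released, GLI proteins act as activators in the nucleus, and GLI1 and PTCH1 are themselves transcribed as target genes. GLI1 is therefore widely used as a readout of the pathway, and PTCH1 as a target that also dampens it. GAS1, BOC and CDON are surface proteins that help PTCH1 bind ligand.

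GLI proteins bind DNA at the consensus GACCACCCA, which was searched on both strands in RefSeq promoter windows (GRCh38.p14) from 250 bases before to 50 after a start site. Windows were found for 7 of the 9 genes, 15 in all, and there was no entry for GLI1 and GLI3. An exact match stood in 1 of the 15 windows, that of a PTCH1 start, against 83 of 35116 windows in all (0.236%). The 250 bases before that start are shown because this is the member window with the full motif. They lie at chr9:95509267-95509516 on the minus strand, with the match in capitals, 172 to 164 bases before the start, as the reverse complement of the consensus.
PTCH1, exact match: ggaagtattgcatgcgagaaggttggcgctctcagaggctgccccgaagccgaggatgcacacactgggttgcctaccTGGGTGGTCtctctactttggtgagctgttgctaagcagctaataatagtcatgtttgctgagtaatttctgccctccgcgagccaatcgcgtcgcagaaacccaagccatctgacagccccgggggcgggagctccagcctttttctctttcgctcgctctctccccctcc
PTCH1, 1 mismatch: cagggaaggcGAGCACCCAgacgggggcc
The second stretch, at chr9:95507393-95507421 on the minus strand, is a match with 1 mismatch that 2 overlapping PTCH1 windows share. With up to 1 mismatch, 3 of the 15 windows held the motif, all of PTCH1, against 2366 of the 35116 windows (6.74%). No window of GLI2, SMO, SUFU, GAS1, BOC or CDON held it with up to 1 mismatch. Such a match describes the letters of a window and does not show that a GLI protein binds there.

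The libraries held 10138479 (WT), 11398791 (shRNA 1) and 11225492 (shRNA 2) counts. Levels are given as CPM, a gene's counts relative to the scaled size of its library. A count of 0 allows a true level of up to 3 counts, equal to 0.301, 0.262 and 0.265 CPM in the same order of libraries. These limits, and all 95% intervals here, cover counting error only. HDAC2 itself had 1051 counts in WT, 383 with shRNA 1 and 583 with shRNA 2, or 105, 33.4 and 51.6 CPM. HDAC2 thus passed edgeR's quasi-likelihood test (Benjamini-Hochberg adjusted p = 4.82e-04), at a log2 change of −1.31 ± 0.20 (SE). Of 10 markers of epithelium and clear cell carcinoma, 9 could be tested and none passed that test, with 0 at an unadjusted p below 0.05. DESeq2's Wald test called none, and gave EPCAM, CDH1 and KRT19 no adjusted p. ANXA4 stood at 703, 779 and 770 CPM and PAX8 at 263, 250 and 174 CPM, while the clear cell marker NAPSA had 1, 4 and 1 counts. The 8 fibroblast markers summed to 16.1, 24.4 and 38.8 CPM, with COL3A1 and LUM at 0 in every library. Most of this came from the collagen gene COL1A2, which rose from 8.73 to 19.2 and 29.6 CPM. Of the 8, 3 could be tested and 1 passed by edgeR, against 7.72% of all tested genes. This was COL1A2, with edgeR's adjusted p at 0.00235 and that of DESeq2's Wald test at 0.0209. The 5 leukocyte markers summed to 2.71, 1.66 and 0.707 CPM with CD3E at 0, and the 3 endothelial markers matched summed to 0.201, 0.872 and 0.354 CPM with KDR at 0. The part of these markers in the values below was not tested.

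GLI1 (ENSG00000111087; chr12:57460135-57472262, plus strand, GRCh38) was the member with the largest relative difference among those with enough counts. It had 58 counts in WT, 20 with shRNA 1 and 20 with shRNA 2, which are 5.82, 1.74 and 1.77 CPM. Both knockdown libraries were low, and they lay close together. Relative to WT they had a mean of 30.2% ± 0.289 (SD, n = 2). The ratio to WT was 0.300 with shRNA 1 (counting interval 0.171 to 0.506) and 0.304 with shRNA 2 (0.173 to 0.513). Counting error is therefore far wider than the gap between the hairpins, whose ratio was 1.01 (0.518 to 1.99). The log2 change was −1.72 ± 0.42 (SE), and 104 of the 14524 tested genes (0.716%) had a change this low or lower.

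GLI2 (ENSG00000074047; chr2:120735623-120992653, plus strand), the main GLI activator upstream of GLI1, was as scarce as GLI1 in WT in counts. It had 56 counts in WT, 36 with shRNA 1 and 28 with shRNA 2, or 5.62, 3.14 and 2.48 CPM. Both knockdown libraries lay below WT, at 55.9% and 44.1% of it, and the log2 change was −0.997 ± 0.392 (SE). GLI3 (ENSG00000106571; chr7:41960950-42237870, minus strand), whose processed form is the main repressor of the pathway, had 313, 302 and 237 counts, or 31.4, 26.3 and 20.96 CPM. The knockdown libraries stood at 83.9% and 66.7% of WT, with shRNA 2 the lower, and the log2 change was −0.41 ± 0.21 (SE). GLI3 was also the only tested member whose counting interval of shRNA 2 against shRNA 1 left out 1, at a ratio of 0.795 (0.668 to 0.946).

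PTCH1 (ENSG00000185920; chr9:95442980-95517057, minus strand) had 407 counts in WT, 312 with shRNA 1 and 264 with shRNA 2. These are 40.8, 27.2 and 23.3 CPM, so that both knockdown libraries lay below WT, with shRNA 2 the lower. They stood at 66.7% and 57.2% of WT, a mean of 61.9% ± 6.71 (SD, n = 2), and the log2 change was −0.69 ± 0.19 (SE). The intervals of the ratio to WT ran from 0.573 to 0.774 with shRNA 1 and from 0.488 to 0.669 with shRNA 2. Among all tested genes, 7.19% had a change this low or lower.

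SMO (ENSG00000128602; chr7:129188872-129213545, plus strand), the signal transducer that PTCH1 restrains, had 329, 318 and 307 counts, or 33.0, 27.7 and 27.1 CPM. The knockdown libraries stood at 84.1% and 82.3% of WT, and the log2 change was −0.27 ± 0.19 (SE). SUFU (ENSG00000107882; chr10:102503987-102633535, plus strand), the cytoplasmic inhibitor of GLI proteins, had 392, 403 and 374 counts, or 39.3, 35.2 and 33.1 CPM. It stood at 89.4% and 84.1% of WT, with a log2 change of −0.20 ± 0.18 (SE). Both genes lay below WT in both knockdown libraries, by less than GLI1, GLI2, GLI3 or PTCH1.

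The ligand-binding helpers were scarce. CDON (ENSG00000064309; chr11:125955796-126063335, minus strand) had 108, 140 and 115 counts, or 10.8, 12.2 and 10.2 CPM. One knockdown library lay above WT and the other below it, and the log2 change was 0.05 ± 0.25 (SE). Of the 75-base sequences of CDON, 25.9% also occur, on either strand, in other annotated genes, mainly VSIG10L2 on the other strand. How reads from there were counted was not tested, so the level of CDON is uncertain. BOC (ENSG00000144857; chr3:113211003-113287459, plus strand) had 5, 7 and 2 counts, and GAS1 (ENSG00000180447; chr9:86944363-86947189, minus strand) had 2, 0 and 3. Both were too low to be tested. The ratio of BOC to WT was 1.22 (0.333 to 4.86) with shRNA 1 and 0.353 (0.0336 to 2.15) with shRNA 2, so no difference was detectable at this depth. GAS1 was at or under the limit of 3 counts in every library, and no ratio is given.

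**Figure D1:**
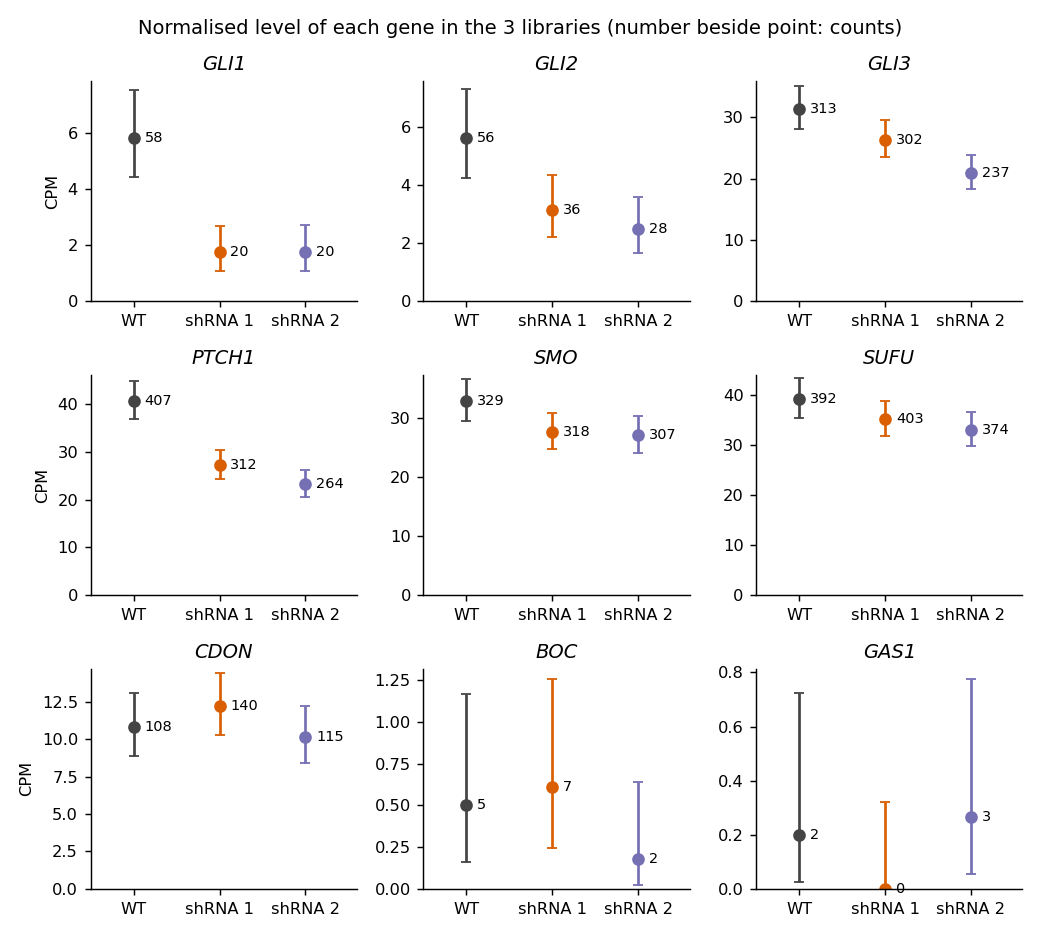
Levels of the 9 Hedgehog genes in the WT, shRNA 1 and shRNA 2 libraries, with bars for the 95% counting interval of each single library. GLI1 stands at 5.82 CPM in WT against 1.74 and 1.77 CPM with the hairpins, while SMO and SUFU stay between 27.1 and 39.3 CPM.

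Of the 9 genes, 7 had enough counts for the fit across all genes. That fit holds every gene of the table with enough counts, and in it 2 of the 7, GLI1 and PTCH1, fell on the lower side of its threshold (an adjusted p below 0.05, here named a call) and none on the higher side. Over all 14524 tested genes, 3.76% were called lower, 3.96% higher and 7.72% in either direction. Since the genes were chosen on this contrast, their count is no test of them and nothing is read from it. In the same way, 6 of the 7 lay below WT in both knockdown libraries, as did 39.3% of all tested genes. The median log2 change was −0.41 over the 7 and 0.01 over all tested genes. With shRNA 2, 6 of the 7 lay lower than with shRNA 1, GLI1 being the exception, against 49.8% of all tested genes. HDAC2 had the opposite order, with 33.4 CPM with shRNA 1 and 51.6 CPM with shRNA 2.

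**Figure D2:**
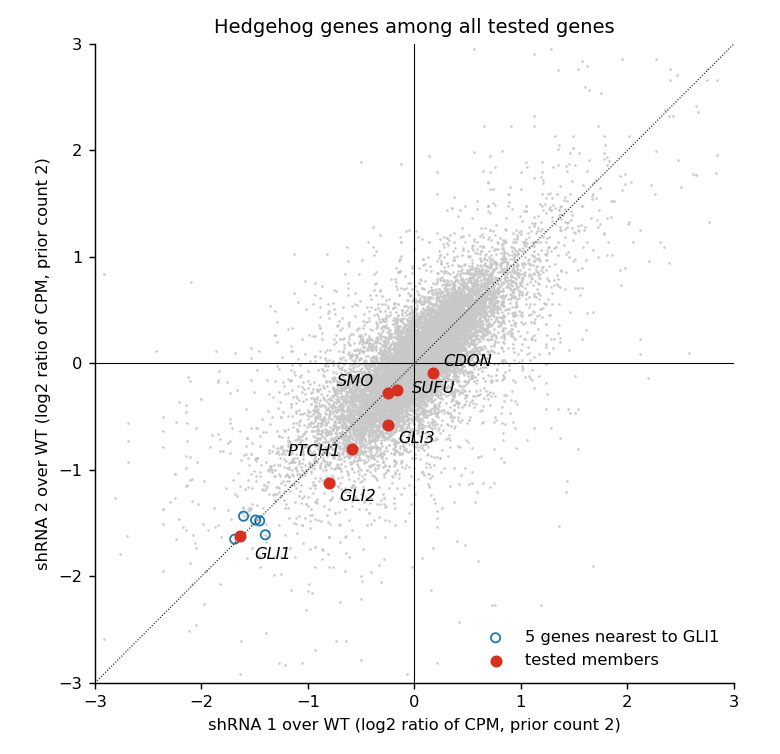
Log2 ratio to WT (prior count of 2) with shRNA 1 on the x axis and with shRNA 2 on the y axis, each grey point a tested gene and each labelled point a Hedgehog gene; 107 tested genes lie outside the axes. GLI1 lies at −1.64 and −1.62 beside the 5 genes of nearest pattern (open circles), and CDON is the labelled gene with opposite signs.

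Levels of different genes were compared per kilobase of the longest coding transcript. In WT the order was SMO (8.83 CPM per kb), SUFU (7.86), PTCH1 (4.96), GLI3 (3.83), GLI1 (1.61), CDON (1.19), GLI2 (0.826), BOC (0.108) and GAS1 (0.0710). The counting intervals of SMO and SUFU overlapped in WT, as did those of GLI1 and CDON, of CDON and GLI2, and of BOC and GAS1. Those of SUFU and PTCH1, of PTCH1 and GLI3, of GLI3 and GLI1, and of GLI2 and BOC did not. The WT level of SMO exceeded that of 53.8% of tested coding genes and the level of GLI1 that of 16.4%, so GLI1 was a scarce transcript in WT already. In both knockdown libraries GLI1 stood below CDON, at 0.483 and 0.490 CPM per kb against 1.34 and 1.11. It then lay beside GLI2, at 0.462 and 0.364 CPM per kb, with overlapping intervals.

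The make-up of the GLI transcripts within a library does not depend on scaling between libraries. GLI1 gave 13.6% of all GLI1, GLI2 and GLI3 counts in WT (Wilson 95% interval 10.7 to 17.2%, 427 counts). It gave 5.59% with shRNA 1 (3.65 to 8.47%, 358 counts) and 7.02% with shRNA 2 (4.59 to 10.6%, 285 counts). GLI3 made up 73.3% in WT, 84.4% with shRNA 1 and 83.2% with shRNA 2. GLI1 thus took a smaller share of GLI counts in both knockdown libraries. Its intervals there did not overlap that of WT, narrowly so for shRNA 2. All shares in this paragraph rest on counts known when the genes were chosen, so they are a description and no added evidence. Of the counts of PTCH1 and SMO together, PTCH1 gave 55.3% (51.7 to 58.9%) in WT, 49.5% (45.6 to 53.4%) with shRNA 1 and 46.2% (42.2 to 50.3%) with shRNA 2. Only the interval of shRNA 2 lay clear of that of WT. SMO gave 45.6%, 44.1% and 45.1% of the counts of SMO and SUFU, with overlapping intervals. Set against SMO alone, GLI1 gave 15.0% of the counts of both genes in WT, 5.92% with shRNA 1 and 6.12% with shRNA 2.

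**Figure D3:**
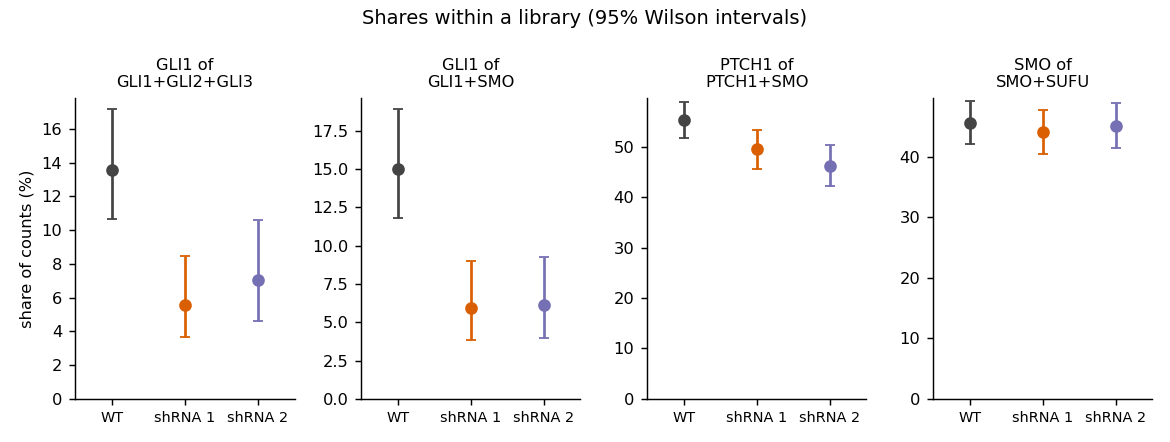
Shares of counts within each library, in percent, with Wilson 95% intervals. The GLI1 share of GLI counts is 13.6% in WT against 5.59% and 7.02% with the hairpins, while the SMO share of SMO and SUFU counts stays between 44.1% and 45.6%.

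The changes moved with the GC content of transcripts, and GLI1, GLI2 and SMO are GC-rich. The longest coding transcript of GLI1 has 58.6% GC, against a median of 48.3% over tested genes. The 834 tested genes within 1 GC point of GLI1 had a median log2 change of −0.25. For SMO, at 61.5% GC, the median of such genes was −0.25, and for SUFU, at 56.6%, it was −0.22, close to the changes of both genes. PTCH1, at 51.1%, had neighbours in GC with a median of −0.07. With the GC trend removed in each library, the log2 change was −1.49 for GLI1, −0.73 for GLI2, −0.62 for PTCH1, −0.35 for GLI3, 0.01 for SMO, −0.01 for SUFU and 0.00 for CDON. GLI1 kept the lowest value of the 7, and neither GLI1 nor PTCH1 was then called. In that fit 2.34% of all tested genes were called in either direction.

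**Figure D4:**
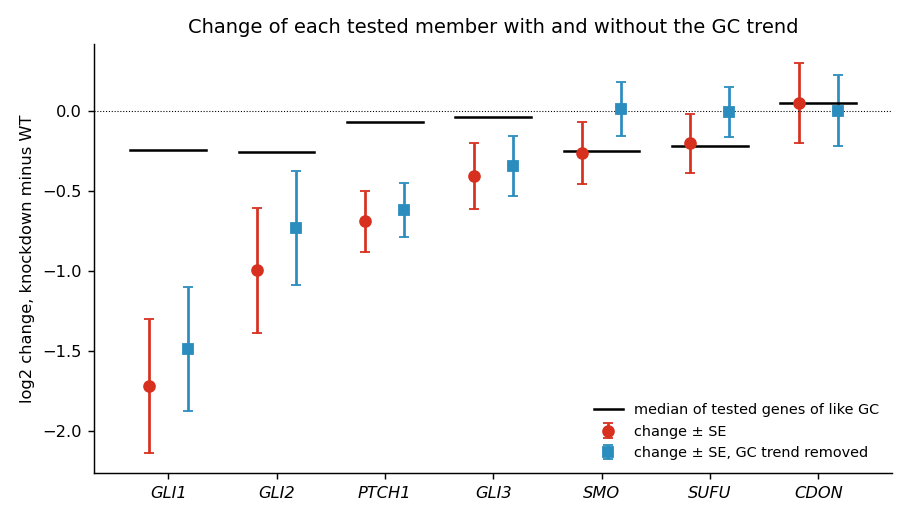
Log2 change (knockdown minus WT) with SE of the 7 tested Hedgehog genes, as fitted (circles) and with the GC trend removed (squares), and the median change of tested genes within 1 GC point (black bars). The bars belong to the fit with the trend kept, in which SMO and SUFU lie close to their bars of −0.25 and −0.22 and GLI1 (−1.72) lies below its bar of −0.25.

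Genes that share exon sequence with a member, and the nearest genes to GLI1, were looked up in the annotation, and their counts follow in the order WT, shRNA 1, shRNA 2. ARHGAP9, on the other strand, shares 8 bases of exon with GLI1 and held 3, 4 and 4 counts. INHBE, which ends 855 bases before GLI1, had 6, 3 and 2 counts. MARS, 3183 bases after GLI1, encodes methionyl-tRNA synthetase and had 1373, 1192 and 1237 counts. MARS did not pass edgeR's test (adjusted p = 0.190), at a log2 change of −0.37 ± 0.17 (SE). BOC shares 513 bases of exon with CFAP44 on the other strand, which had 40, 73 and 67 counts, more than BOC itself. No source used here states a strand setting for the counts, so reads from that overlap cannot be assigned. PTCH1 shares 711 bases with AL161729.1, which had 1 count in each library, and SMO shares 129 bases with AC011005.4, which had none. CDON shares 2831 bases with VSIG10L2, whose gene ID has no entry in the count table. These 3 partners also lie on the other strand.

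The hairpins were also compared with the members. Neither 21-base stem nor its other strand came closer to a member transcript than 5 mismatches, a value reached by the other strand of the second listed hairpin in PTCH1. Sites complementary to the seed of the stem's antisense arm (its bases 2 to 8) were counted in the longest coding transcripts. For the first listed hairpin there was 1 in GLI1, 4 in GLI3, 4 in CDON, 1 in GAS1 and 1 in BOC, and 37.5% of 19249 coding genes hold at least 1. For the second there were 2 in GLI3 and none in the other members, against 16.4% of coding genes. GLI2, PTCH1, SMO and SUFU held none for either hairpin. The labels do not tie a hairpin sequence to a library, and a part of such sites in the values was not tested.

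Beyond the members, 104 genes of the pathway were grouped by known role, and 85 of them could be tested. Of these 7 rose and 1 fell (9.41% called, against 7.72% of all tested genes), with a median log2 change of 0.10. With the GC trend removed 3 of the 85 were called, against 2.34% of all tested genes. DESeq2's Wald test called 3, against 306 of the 7766 genes it gave an adjusted p. Some of the 85 were given none. The lists, like that of the GLI relatives below, were drawn up with earlier results of these data known. Their shares called are therefore a description. Of the 9 genes for the ligands and their release, 5 were tested and none passed by edgeR, with 0 at an unadjusted p below 0.05. DESeq2's Wald test gave an adjusted p to DISP1 alone, which did not pass (0.552). SHH, the ligand Sonic hedgehog, had 16, 19 and 14 counts, IHH had 1, 1 and 0, and DHH had none in any library. Of 14 other receptors and membrane regulators, 10 were tested and none passed by edgeR, with a median of −0.06. An unadjusted p below 0.05 was reached by 3, against 3420 of all 14524 tested genes. DESeq2's Wald test called 0, and gave some of the 10 no adjusted p.

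Of 22 cytoplasmic regulators of GLI proteins, 21 were tested and only GSK3B passed (4.76% called, against 7.72% of all tested genes). GSK3B, a kinase that phosphorylates GLI proteins for processing, rose from 115 CPM to 199 CPM with each hairpin. Its adjusted p by edgeR was 0.00870, at a log2 change of 0.80 ± 0.18 (SE). With the GC trend removed, GSK3B did not pass by edgeR (log2 change 0.61, adjusted p = 0.0824), and DESeq2's Wald test called it without that correction (adjusted p = 0.00795). KIF7, a kinesin of the cilium tip, had 3, 5 and 8 counts and was not tested. Of 36 genes for the primary cilium and transport within it, 35 were tested, 3 rose and none fell (8.57% called, against 7.72% of all tested genes), with a median of 0.24. KIF3A, a motor subunit, rose from 16.9 to 27.6 and 29.1 CPM, a log2 change of 0.75. DYNC2LI1, a chain of the retrograde dynein, rose from 10.6 to 20.4 and 21.1 CPM, a change of 0.97. CEP290, a protein of the transition zone, rose from 6.32 to 10.3 and 14.4 CPM, a change of 0.97. Above WT in both knockdown libraries were 19 of the 35, against 39.9% of all tested genes. The cilium genes have a median GC content of 43.2%. With the GC trend removed their median change was 0.04 and none passed by edgeR. An unadjusted p below 0.05 was then reached by 4, against 2371 of all 14524 tested genes. DESeq2's Wald test called none without that correction (adjusted p = 0.249 for KIF3A). It gave several of the 35, DYNC2LI1 and CEP290 among them, no adjusted p, so these could not be called there.

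Reported GLI targets outside the members moved in both directions. Of 25, 14 were tested, 3 rose and 1 fell (28.6% called, against 7.72% of all tested genes), with a median of 0.28. The list was drawn up with earlier results of these data known, so its share called is a description. CCND2, a cyclin that drives entry into S phase, rose from 60.5 CPM to 213 and 123 CPM, with edgeR's adjusted p at 0.00116 and a log2 change of 1.47 ± 0.25 (SE). CCND1, a cyclin of the same family, rose from 131 to 258 and 200 CPM, a change of 0.81. BMI1, a Polycomb protein, rose from 34.1 to 48.9 and 63.1 CPM, a change of 0.72. FOXM1, a transcription factor of dividing cells, fell from 137 CPM to 56.6 and 59.4 CPM, with edgeR's adjusted p at 1.67e-04 and a log2 change of −1.24 ± 0.16 (SE). Its knockdown libraries lay far below WT and close together. With the GC trend removed, CCND1, CCND2 and FOXM1 still passed and BMI1 did not, at a log2 change of 0.44. DESeq2's Wald test called 2, CCND1 and FOXM1, against 306 of the 7766 genes it gave an adjusted p. Its adjusted p was 0.230 for CCND2 and 0.170 for BMI1. BCL2, FOXL1, FOXE1, JAG2, SNAI1 and IGFBP6 were given none, so they could not be called there. HHIP, a direct target that binds and sequesters ligand, had no count in any library and could not be tested. The 25 targets are also regulated by other factors. None of their 19 RefSeq promoter windows, found for 13 genes, held the exact GLI motif, and 1 held it with 1 mismatch.

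**Figure D5:**
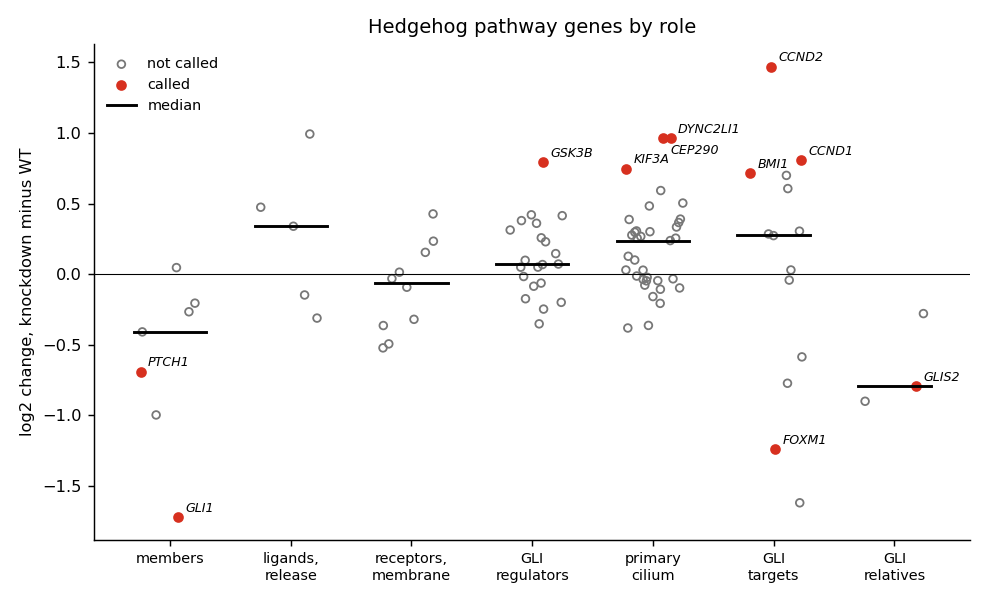
Log2 change (knockdown minus WT) of each tested Hedgehog gene by role, with filled points for genes called at an adjusted p below 0.05 and bars for the median of each group. For the members the filling is a description, since they were chosen on this contrast. Outside them, in lists also drawn up with earlier results known, CCND2 has the highest called change (1.47) and FOXM1 the lowest (−1.24).

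Among 8 zinc finger relatives of the GLI family, 3 were tested and 1 fell (33.3% called, against 7.72% of all tested genes). GLIS2 fell from 27.8 to 16.9 and 15.1 CPM, with edgeR's adjusted p at 0.0229 and a log2 change of −0.79 ± 0.21 (SE). GLIS1 had 54, 35 and 31 counts and did not pass, with a log2 change of −0.90 ± 0.39 (SE). With the GC trend removed, none of the 3 passed by edgeR. An unadjusted p below 0.05 was then reached by 1, against 2371 of all 14524 tested genes. DESeq2's Wald test called none without that correction, and gave GLIS1 no adjusted p.

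The genes whose pattern was most like that of GLI1 were found by the Euclidean distance between their pairs of log2 ratios to WT. This compared 11913 tested genes with a mean count at least that of GLI1, over 3 libraries that share the single WT library. CENPM, which encodes a centromere protein, was nearest at a distance of 0.058, with 217, 76 and 77 counts. ESPL1, the cohesin-cleaving protease separase, followed at 0.188, with 599, 225 and 250 counts. TK1, the thymidine kinase of dividing cells, lay at 0.209, with 1875, 765 and 766 counts. KCNH3, a potassium channel subunit, lay at 0.233, with 77, 31 and 30 counts, and E2F2, a transcription factor of the cell cycle, at 0.238, with 375, 162 and 138 counts. These 5 were the only compared genes within 0.25 of GLI1. The counting interval of GLI1's own log2 ratio to WT ran from −2.55 to −0.98 with shRNA 1. With shRNA 2 it ran from −2.53 to −0.96. Both are far wider than these distances, so which genes are nearest, and their order, is not resolved at this depth.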

How the data were processed

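Total RNA was converted with the ScriptSeq Complete Gold kit and read as 75 bp reads, per the labels' protocols. The authors deposited 1 table of estimated counts for Ensembl genes, already whole, so no rounding was needed. RSEM 1.2.3, edgeR and hg19 are named in the submitters' processing notes, without their roles. Coordinates, lengths and GC content came from GENCODE 29 (GRCh38) rather than from hg19, and sequences from RefSeq.

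Genes were tested with edgeR 4.0.16 (R 4.3.3) by the quasi-likelihood test, with TMM scaling, filterByExpr and Benjamini-Hochberg adjustment over 14524 genes. The fit had 1 residual degree of freedom and a prior of 18.9, and assumes that the lone WT library varies as the knockdown libraries do. SE was the log2 change divided by the square root of F. CPM are counts over TMM-scaled library sizes.

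The members and gene lists were chosen with earlier results of these data known. Named genes were the members, HDAC2, up to 4 called genes per list and direction, HHIP and FOXM1, overlapping or neighbouring genes and the 5 genes most like GLI1; some list genes are not reported here. Other genes named (ligands, DISP1, KIF7, GLIS1, markers and targets without an adjusted p by DESeq2) were chosen after their values were seen. Alternatives were DESeq2 1.42.0 (size factors and Wald test), library size, upper quartile, other filters, a prior count of 0.5, leaving out a hairpin library, and a GC trend removed by loess (span 0.5).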

Additional observations from a re-analysis of the deposited data

How the results depend on the processing

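GLI1 and PTCH1 kept their direction under every alternative run. The log2 change of GLI1 was −1.69 with library size alone, −1.49 with the GC trend removed, and −1.74 to −1.72 when 1 hairpin library was left out; for PTCH1 the latter range was −0.81 to −0.59. Of 61 alternative values for the tested members, 59 kept their sign, the exceptions being SMO with the GC trend removed (0.01) and CDON without shRNA 1 (−0.09). The genes were chosen for values of this contrast, so a kept direction is a description. The 2 members called became 0 without a filter on low counts, 1 with a mean count of at least 50 (where GLI1, at a mean count of 32.7, was not tested), 0 with the GC trend removed and 0 by DESeq2's Wald test (where GLI1 was given no adjusted p). Over all genes, 1121 calls of 14524 became 0 of 23698 without a filter (2486 at an unadjusted p below 0.05). They became 340 of 14524 with the GC trend removed. By the Wald test they became 306 of 7766, the genes given an adjusted p there. In the same order, 546 lower calls became 0, 215 and 154. Of the other pathway genes, 8 calls became 0, 3 and 3, and 7 higher calls became 0, 2 and 2. The cause was not tested. No paired analysis was possible because WT and knockdown share fewer than 2 replicate numbers. Leaving out a hairpin library leaves no residual degree of freedom, so calls were not counted there. Depth limits GLI1, GLI2, BOC and GAS1 most.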
